A study of Homo sapiens with 6 samples.

Results

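The genes described here are 44 ligands, latency proteins, receptors, SMAD transducers, target genes and inhibitors of the TGF-beta and BMP pathways. They were chosen by name, as the genes of the count table whose Ensembl identifiers map to a written list of symbols. The list was written with earlier results of these data known, although no measured value enters it. All 44 were found among 60605 genes. They fall into a TGF-beta and activin arm of 19 genes, a BMP arm of 13 and a set of 12 inhibitors. A filter on low counts kept 39 of them among 14479 tested genes.

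RNA was sequenced from UMUC3, an established human bladder cancer cell line, in 6 libraries. In 3 of them the cells had been infected with TIM-1-PLVX-IRES-zsgreen, a lentiviral vector that carries TIM-1, the product of HAVCR1, together with the green fluorescent protein ZsGreen. In the other 3 the cells had been infected with PLVX-IRES-Zsgreen, the same vector without TIM-1. Every library therefore comes from infected cells with the ZsGreen cassette, and uninfected cells were not analysed here. The sources used here do not give whether the infected cells were a pool or a clone, or whether replicates came from separate cultures. P-values therefore measure the spread among these 6 libraries only, and that spread may be technical. The titles number the libraries 1 to 3 in each group.

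TGF-beta is secreted as a latent complex in which latent TGF-beta binding proteins (LTBPs) tether it to the extracellular matrix. Once released, TGF-beta and activin bind pairs of type I and type II receptor kinases that phosphorylate SMAD2 and SMAD3, whereas BMPs act through related receptors on SMAD1 and SMAD5, and both routes share SMAD4. Inhibitory SMADs, SMURF ubiquitin ligases, SKI-family repressors and secreted antagonists such as noggin restrain these signals. In carcinoma cells the pathway is known for both growth arrest and a matrix-producing, mesenchymal state.

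Promoter sequences are shown for the 3 members that passed the paired test described below, LTBP1, LTBP2 and TGFBI, and for ID1, a classical BMP target that did not. Each runs 5′ to 3′ on the gene's own strand, comes from the RefSeq promoter table of GRCh38.p14, and holds only bases upstream of both the RefSeq and the GENCODE 29 start. The sequences lie at chr2:32946703-32946952 (+ strand, LTBP1), chr14:74612379-74612487 (- strand, LTBP2), chr5:136028738-136028894 (+ strand, TGFBI) and chr20:31605039-31605282 (+ strand, ID1). Capitals mark CAGAC or its reverse complement GTCTG, the core letters of the element bound by SMAD3 and SMAD4, and the palindrome GGCGCC, a GC-rich element that SMAD1 and SMAD5 can bind.
LTBP1: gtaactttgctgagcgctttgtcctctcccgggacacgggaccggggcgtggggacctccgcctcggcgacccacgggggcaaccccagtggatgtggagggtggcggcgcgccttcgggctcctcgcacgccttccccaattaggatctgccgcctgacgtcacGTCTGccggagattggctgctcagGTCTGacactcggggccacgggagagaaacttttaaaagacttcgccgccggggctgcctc
LTBP2: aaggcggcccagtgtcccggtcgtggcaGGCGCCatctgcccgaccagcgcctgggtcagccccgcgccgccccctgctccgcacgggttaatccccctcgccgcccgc
TGFBI: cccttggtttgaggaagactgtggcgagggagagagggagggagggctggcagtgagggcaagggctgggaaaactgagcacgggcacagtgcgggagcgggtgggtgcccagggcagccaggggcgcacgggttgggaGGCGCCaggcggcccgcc
ID1: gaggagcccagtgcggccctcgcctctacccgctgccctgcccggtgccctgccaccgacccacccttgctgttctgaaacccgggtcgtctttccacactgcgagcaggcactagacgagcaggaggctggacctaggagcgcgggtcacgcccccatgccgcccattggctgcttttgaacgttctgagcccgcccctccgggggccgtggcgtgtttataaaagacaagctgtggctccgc
LTBP1 held 2 copies of the GTCTG form, LTBP2 and TGFBI held 1 GGCGCC each, and the ID1 stretch held neither motif.

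The table had a promoter for 40 of the 44 members and none for BMP2, BMP7, NOG and SKI. In the 250 bases before the RefSeq start, CAGAC on either strand occurred in 16 of the 40 members (40%), beside 38% of 35116 promoters of all genes. GGCGCC, which reads alike on both strands and can share at most 1 base with CAGAC or GTCTG, occurred in 14 of the 40 (35%), beside 16.4% of all promoters. By arm, CAGAC occurred in 5 of 19 promoters of the TGF-beta and activin arm, 5 of 11 of the BMP arm and 6 of 10 of the inhibitors. GGCGCC occurred in 7 of 19, 3 of 11 and 4 of 10. GGCGCC holds only G and C, and the GC content of the member promoters ran from 40.8% for TGFBR2 to 89.6% for INHBB. The promoters of all genes were not matched for GC content, and its part in the shares was not tested. Members were taken once per gene, which was not done for the promoters of all genes. These are matches of letters and not measured binding sites.

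No member passed the test with TIM-1 when the groups were compared without pairing, and 3 members rose when same-numbered libraries were paired. In the unpaired quasi-likelihood test of edgeR, 0 of 39 members passed an adjusted p of 0.05 in either direction, against 0.0138% of all tested genes. 1 member, TGFBI, had an unadjusted p under 0.05, beside 795 of 14479 tested genes, and DESeq2 called 0 members. In the paired edgeR test, TGFBI, LTBP1 and LTBP2 were higher with TIM-1 and 0 members were lower. These 3 of 39 are 7.69%, beside 5.01% of all tested genes called in either direction, 3.22% called higher and 1.79% called lower. Of all genes called in the paired test 64.3% were higher. A GC correction brought that share to 52.3%, with 8.89% of all tested genes and 5 members called, all 5 higher. At an unadjusted p under 0.05, 9 members were higher and 1 was lower in the paired test, beside 1426 and 1230 of 14479 tested genes. The data cannot tell whether replicates 2 and 3 are paired by number. With replicate 1 against the others as the block instead, TGFBI was the only member called (edgeR, adjusted p = 0.00273). In bulk RNA, fewer cells of a type and less RNA per cell cannot be told apart.

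The 3 arms differed little in their medians. In the paired test the median log2 fold change was 0.10 over the 17 tested genes of the TGF-beta and activin arm, -0.09 over the 12 of the BMP arm, -0.01 over the 10 inhibitors and 0.00 over all tested genes. All 3 calls on the 6 libraries lay in the TGF-beta and activin arm. The GC correction added BMPR2 of the BMP arm and the inhibitor NOG. Without pair 1 the paired fit called BMPR2, ID2 and NOG beside TGFBI, LTBP2 and, lower, TGFB1, and no longer LTBP1. The BMP arm had 0 calls in the paired edgeR test and 2 genes at an unadjusted p under 0.05, and the inhibitors had 0 calls and 1 such gene. Over all tested genes, 2656 of 14479 had such a p. DESeq2 with the pairing called 1 member in all, TGFBI. The median size of the change, regardless of sign, was 0.11 over the members and 0.12 over all tested genes. The differences between arms were not tested.

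**Figure D1:**
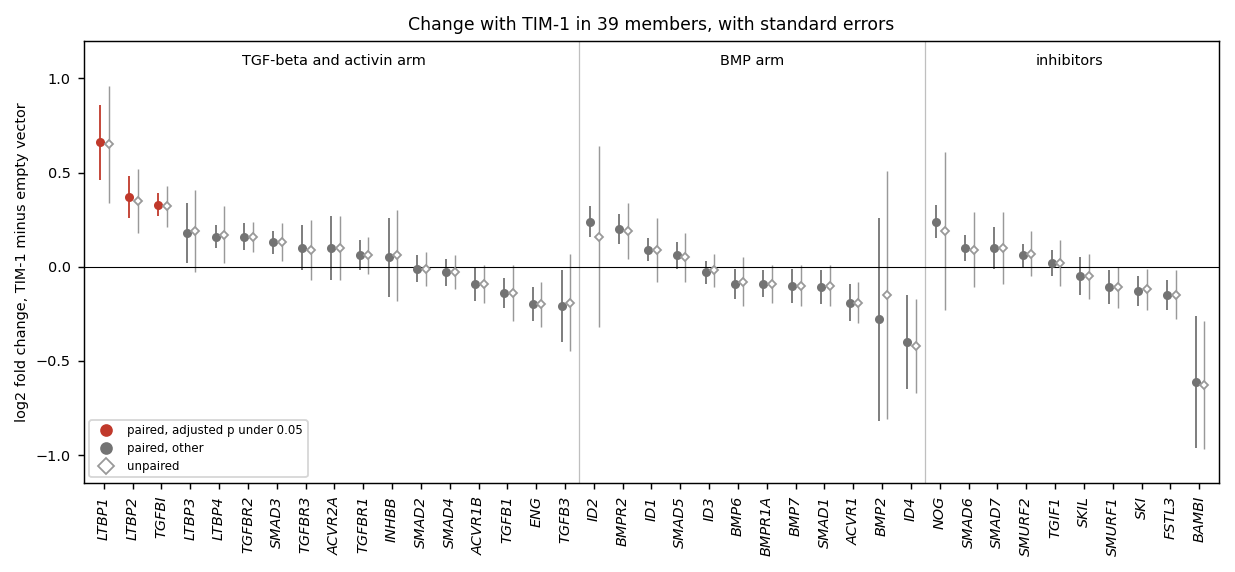
Log2 fold change (vertical axis, TIM-1 minus empty vector) of the 39 tested members, ordered by arm and by size. Filled circles are the paired and open diamonds the unpaired edgeR values, bars are standard errors, and red marks an adjusted p under 0.05 in the paired test, reached by LTBP1, LTBP2 and TGFBI.

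Directions were also counted pair by pair. In 11 members the TIM-1 library was higher in all 3 same-numbered pairs, in 5 it was lower in all 3 and in 23 the pairs were mixed. These 16 members are 41% of those tested, beside 39.2% of all tested genes, of which 20.1% were higher and 19.1% lower in all 3. Of the TGF-beta and activin arm, 9 of 17 genes were higher in all 3 pairs and 1 was lower, whereas in the BMP arm 1 was higher and 3 were lower. In 3 members the groups did not overlap in CPM (read counts scaled to a common library size with TMM factors), with TGFBI and TGFBR2 higher and ACVR1 lower with TIM-1, beside 11.7% of all tested genes, 6.6% higher and 5.06% lower.

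Among the ligands, TGFB1 and BMP6 had the highest level per exon length. In the empty-vector libraries TGFB1, which encodes the most widely expressed TGF-beta isoform, had an RPKM of 53.5 ± 8.76 (CPM divided by exon length in kilobases, SD, n = 3). BMP6, a BMP known for iron regulation in the liver, had an RPKM of 24.7 ± 1.62. BMP7 followed at 5.84 RPKM, and INHBB, the activin beta B subunit, at 1.37. BMP2 was the lowest ligand tested, at 0.182 RPKM, with TGFB3 between them.

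In the order of replicates 1, 2 and 3, which is kept below, TGFB1 had 188, 139 and 145 CPM with TIM-1 and 172, 145 and 202 CPM with the empty vector. The groups overlapped, with the lowest library in the TIM-1 group and the highest in the empty-vector group. The paired log2 fold change was -0.14 ± 0.08 (SE), with an adjusted p of 0.411. Its exons share 6.64% of their bases with HNRNPUL1 on the opposite strand, an abundant gene whose reads cannot be told apart from those of TGFB1 if strand was not used in counting. The same holds for 11.7% of the exon bases of SMURF1, which face TRRAP, and 6.35% of those of ACVR2A, which face ORC4.

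BMP6 had 51.3, 74.7 and 68.4 CPM with TIM-1 and 63.4, 70.9 and 71.5 CPM with the empty vector. Replicate 1 was the lowest library of each group, and TIM-1 replicate 1 was the lowest of all. The paired log2 fold change was -0.09 ± 0.08 (SE, adjusted p = 0.561). The 4 other tested ligands had paired log2 fold changes from -0.28 for BMP2 to 0.05 for INHBB, none past the threshold.

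TGFB2, INHBA and BMP4, which encode the second TGF-beta isoform, the activin beta A subunit and a BMP, were too low to test. TGFB2 had at most 4 counts in a library, BMP4 at most 9 and INHBA at most 11. The antagonists FST and GREM1 were too low as well. GREM1 had 0 counts in all 6 libraries, and FST had 1 count in 1 TIM-1 library.

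The latency proteins had the highest median change of the role groups. LTBP1 to LTBP4 were each higher with TIM-1 in all 3 same-numbered pairs, with paired log2 fold changes from 0.16 to 0.66 and a median of 0.28, and LTBP1 and LTBP2 passed the paired test. LTBP4 was by far the highest of them per exon length, at 20.7 ± 3.34 RPKM with the empty vector, against 2.00 for LTBP2, 0.704 for LTBP3 and 0.484 for LTBP1. The genes that passed therefore did not include LTBP4, the most abundant of the family.

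LTBP1 lies on chromosome 2 (GRCh38, 32946972 to 33399509, + strand). Its raw counts were low, at 110, 78 and 80 with TIM-1 against 81, 45 and 46 with the empty vector. Scaled, these were 7.59, 4.83 and 4.32 CPM against 5.07, 2.78 and 2.77 CPM. Replicate 1 was the highest library in both groups, so the groups overlapped although each TIM-1 library exceeded its partner. The log2 fold change was 0.65 ± 0.31 (SE, adjusted p = 0.891) unpaired and 0.66 ± 0.20 (SE, adjusted p = 0.0422) paired. The call was lost when any 1 pair was left out, with adjusted p of 0.103, 0.328 and 0.103 without pairs 1, 2 and 3, and in DESeq2 with the pairing (adjusted p = 0.448). It was also lost in the paired fit with no low-count filter (adjusted p = 0.0548) and with replicate 1 against the others as the block (adjusted p = 0.0541).

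LTBP2, which unlike the other LTBPs does not bind latent TGF-beta and sits on elastic microfibrils, lies on chromosome 14 (74498170 to 74612378, - strand). It had 24.4, 21.5 and 23.9 CPM with TIM-1 and 23.5, 14.8 and 16.3 CPM with the empty vector. The first pair was nearly level, and the other pairs carried the difference, with log2 ratios of 0.06, 0.53 and 0.55 in pairs 1, 2 and 3. The log2 fold change was 0.35 ± 0.17 (SE, adjusted p = 0.891) unpaired and 0.37 ± 0.11 (SE, adjusted p = 0.0375) paired. The paired adjusted p was 0.00638 without pair 1, 0.41 without pair 2 and 0.256 without pair 3. It was 0.393 in DESeq2 with the pairing and 0.0709 with replicate 1 against the others as the block.

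LTBP4, on chromosome 19 (40592883 to 40629818, + strand), had 231, 171 and 164 CPM against 198, 147 and 158 CPM. Its paired log2 fold change of 0.16 ± 0.06 (SE) did not pass, with an adjusted p of 0.133. Without pair 3 it was 0.22 and passed (adjusted p = 0.0482). LTBP3 averaged 8.32 ± 2.15 CPM with TIM-1, against 7.25 ± 1.14 CPM without it (SD, n = 3), and its paired log2 fold change was 0.18 (adjusted p = 0.58).

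**Figure D2:**
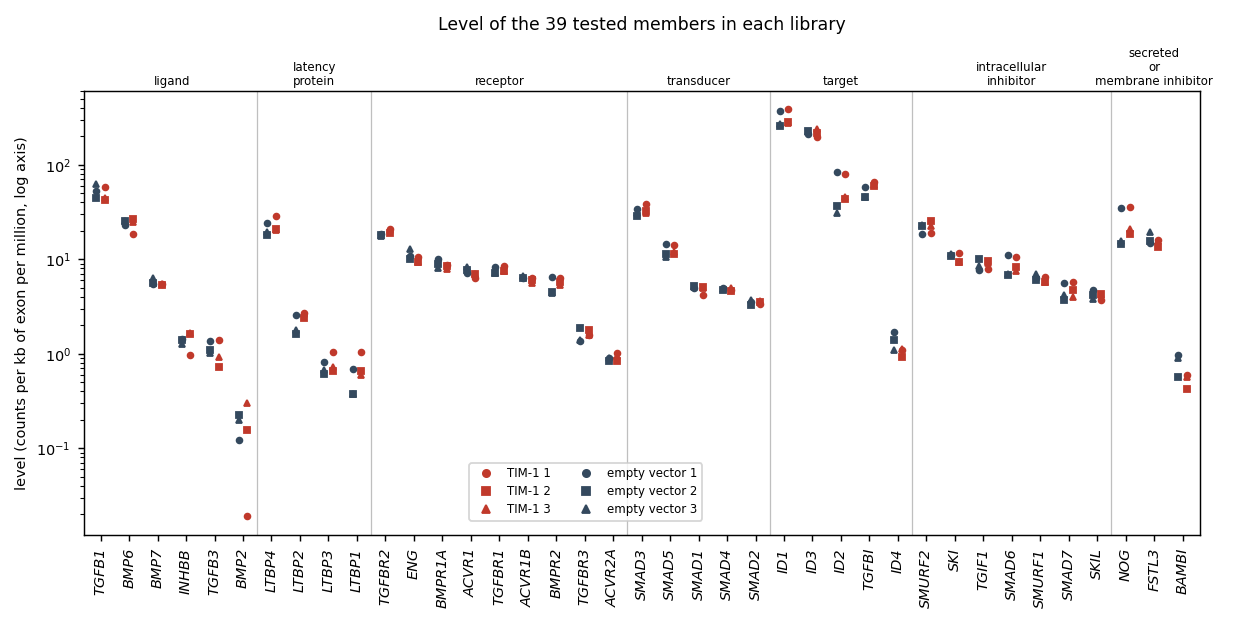
Level of the 39 tested members in each library, in RPKM (CPM per kilobase of exon) on a log axis, grouped by role and ordered by the empty-vector mean. Red points are TIM-1 and dark points empty-vector libraries, with circle, square and triangle for replicates 1, 2 and 3. ID1 and ID3 stood highest, and in ID2 and NOG the circles lie above the other points of both groups.

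No receptor passed the unpaired or the paired test on all 6 libraries, and BMPR2 passed in 2 alternatives given below. TGFBR2, the type II receptor that starts the TGF-beta signal, was the highest receptor per exon length at 18.1 ± 0.628 RPKM with the empty vector, ahead of ENG, the coreceptor endoglin, at 11.3 ± 1.38. The 9 receptors had paired log2 fold changes from -0.20 to 0.20. In all 3 pairs 3 were higher and 3 were lower.

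TGFBR2 had 98.6, 90.3 and 95.7 CPM with TIM-1 and 88.0, 84.9 and 82.1 CPM with the empty vector, without overlap. The difference was small, with a log2 fold change of 0.16 ± 0.08 (SE, adjusted p = 0.893) unpaired and 0.16 ± 0.07 (SE, adjusted p = 0.189) paired. ENG had 41.9, 36.6 and 37.1 CPM against 42.8, 39.8 and 50.3 CPM, lower in each pair with overlapping groups (paired log2 fold change -0.20 ± 0.09 SE, adjusted p = 0.189).

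ACVR1, the BMP type I receptor also called ALK2, was the member whose TIM-1 values all lay below the empty-vector values. It had 25.5, 27.6 and 27.9 CPM against 28.4, 30.9 and 33.0 CPM. The log2 fold change was -0.19 ± 0.10 (SE) in the paired test, with an adjusted p of 0.283. BMPR2, the BMP type II receptor, is named here after its values were seen. It had 75.1, 68.3 and 64.1 CPM against 76.5, 53.8 and 51.8 CPM, level in the first pair and higher with TIM-1 in the others. Its paired log2 fold change was 0.20 (adjusted p = 0.118), 0.32 (adjusted p = 0.0154) without pair 1 and 0.20 (adjusted p = 0.0379) with a GC correction. The type I receptors TGFBR1 and BMPR1A stood at 0.06 and -0.09 (paired log2 fold change), TGFBR3, or betaglycan, at 0.10, and the activin receptors ACVR1B and ACVR2A at -0.09 and 0.10.

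No SMAD transducer passed the unpaired or the paired test. SMAD3 was the highest per exon length, at 30.9 ± 2.65 RPKM with the empty vector, followed by SMAD5 at 12.1 ± 1.97. SMAD3 had 351, 294 and 282 CPM with TIM-1 and 307, 259 and 279 CPM with the empty vector. Each TIM-1 library was above its partner, narrowly in the third pair, and the paired log2 fold change was 0.13 ± 0.06 (SE, adjusted p = 0.22). SMAD5 had 129, 104 and 109 CPM against 130, 104 and 95.4 CPM, level in pairs 1 and 2, with a paired log2 fold change of 0.06 (adjusted p = 0.694). SMAD1, SMAD2 and SMAD4 had paired log2 fold changes of -0.11, -0.01 and -0.03. The level of SMAD2 per length is taken over 36366 annotated exon bases and is lower for that reason than a level over one transcript.

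Among the target genes, TGFBI rose in the paired test and the ID genes did not. TGFBI encodes a secreted matrix protein named for its induction by TGF-beta, and lies on chromosome 5 (136028895 to 136063818, + strand). It had 513, 464 and 479 CPM with TIM-1 and 456, 356 and 355 CPM with the empty vector. All TIM-1 libraries lay above all empty-vector libraries, by little for empty-vector replicate 1. The means were 485 ± 24.9 and 389 ± 57.9 CPM (SD, n = 3).

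The log2 fold change of TGFBI was 0.32 ± 0.11 (SE, adjusted p = 0.749) unpaired and 0.33 ± 0.06 (SE, adjusted p = 0.000268) paired. The log2 ratios of the pairs were 0.17, 0.38 and 0.43. It was also called by DESeq2 with the pairing (adjusted p = 0.00102) and without pair 1 or pair 3, while without pair 2 the adjusted p was 0.0602. With replicate 1 of both groups left out and no pairing, an alternative chosen after seeing the data, the log2 fold change was 0.40 (adjusted p = 0.00928). That fit called 3 members, TGFBI, LTBP2 and ID2, beside 1.77% of all tested genes.

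ID1, ID2, ID3 and ID4 encode inhibitors of basic helix-loop-helix factors and are direct BMP targets. ID1, on chromosome 20 (31605283 to 31606515, + strand), was the highest member per exon length, at 299 ± 62.0 RPKM with the empty vector, followed by ID3 at 221 ± 9.01. ID1 had 484, 353 and 341 CPM with TIM-1 and 457, 318 and 332 CPM with the empty vector. Replicate 1 stood far above the others in both groups, by more than any pair differed. The paired log2 fold change was 0.09 ± 0.06 (SE, adjusted p = 0.436).

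ID3 had 352, 389 and 430 CPM against 379, 409 and 403 CPM. Its groups overlapped in full (paired log2 fold change -0.03 ± 0.06 SE, adjusted p = 0.857). ID2, named after its values were seen, had 177, 95.7 and 99.5 CPM against 184, 80.8 and 67.7 CPM. The pairs disagreed, and the paired log2 fold change was 0.24 ± 0.08 (SE, adjusted p = 0.0867). Without pair 1 it was 0.40 (adjusted p = 0.00221). ID4 was low, at 2.45 ± 0.254 and 3.29 ± 0.708 CPM (SD, n = 3), with a paired log2 fold change of -0.40 ± 0.25 (SE, adjusted p = 0.412).

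Of the intracellular inhibitors 0 of 7 passed the paired edgeR test. Of these 7 genes 0 had an unadjusted p under 0.05 there, beside 2656 of 14479 tested genes. The 7 paired log2 fold changes ran from -0.13 to 0.10. SMURF2, a ubiquitin ligase for SMADs and receptors, and SKI, a SMAD corepressor, had the highest levels per exon length, at 21.3 ± 2.40 and 11.0 ± 0.269 RPKM with the empty vector.

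SMURF2 had 133, 176 and 157 CPM with TIM-1 and 129, 156 and 160 CPM with the empty vector. Replicate 1 was the lowest in both groups, and the paired log2 fold change was 0.06 (adjusted p = 0.669). SKI had 70.7, 56.9 and 57.1 CPM against 67.3, 65.2 and 68.5 CPM, overlapping through TIM-1 replicate 1 (paired log2 fold change -0.13, adjusted p = 0.376). The inhibitory SMADs, SMAD6 and SMAD7, both stood at 0.10 (paired log2 fold change), SMURF1 at -0.11, SKIL at -0.05 and the corepressor TGIF1 at 0.02.

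The secreted and membrane inhibitors gave no call either, with NOG at 21.8 ± 11.4 and FSTL3 at 16.6 ± 2.57 RPKM with the empty vector. NOG, or noggin, which binds BMPs outside the cell, had 67.0, 35.0 and 39.5 CPM with TIM-1 and 66.1, 27.8 and 29.7 CPM with the empty vector. The first pair was level and far above the others. The paired log2 fold change was 0.24 ± 0.09 (SE, adjusted p = 0.0939), and 0.37 (adjusted p = 0.0252) without pair 1.

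FSTL3, which binds activin, had 48.9, 41.1 and 47.7 CPM against 45.5, 47.6 and 60.1 CPM, with overlap (paired log2 fold change -0.15, adjusted p = 0.339). BAMBI, a decoy receptor that lacks a kinase domain, is named here after its values were seen. It had 1.38, 0.99 and 1.30 CPM against 2.26, 1.30 and 2.11 CPM. It was lower in each pair at 16 to 36 raw counts, and its paired log2 fold change of -0.61 ± 0.35 (SE) had an adjusted p of 0.352.

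**Figure D3:**
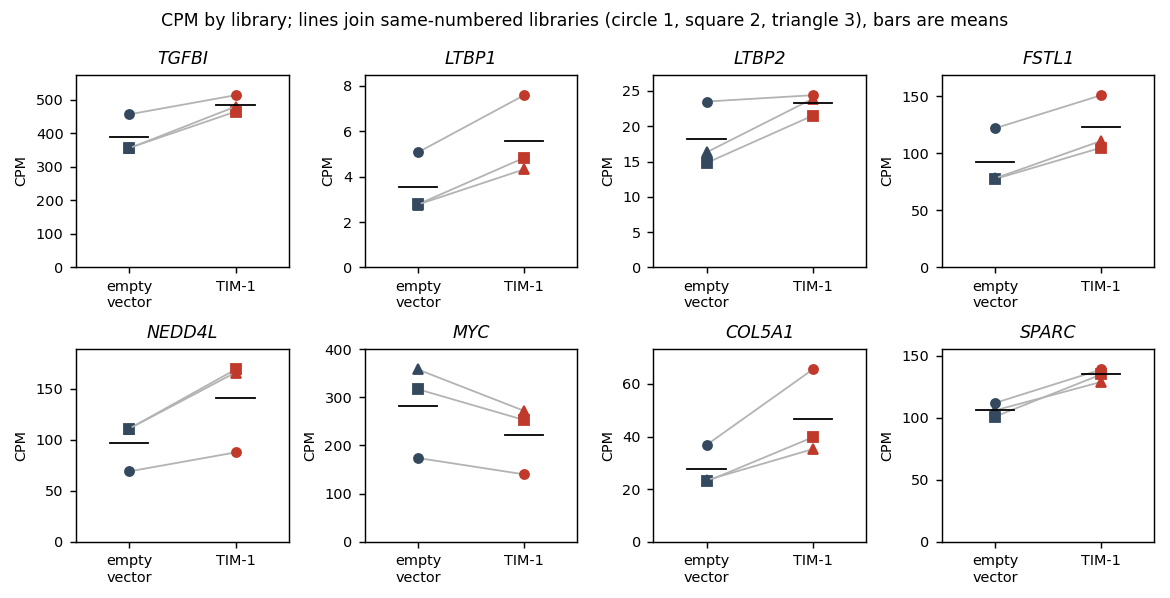
CPM (vertical axes from 0) in each library for TGFBI, LTBP1, LTBP2, the pathway genes FSTL1, NEDD4L and MYC, and the matrix genes COL5A1 and SPARC. Grey lines join same-numbered libraries, symbols mark replicates 1, 2 and 3 and black bars are group means. Each line of every gene shown runs one way, while in most genes replicate 1 (circles) lies away from replicates 2 and 3.

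Replicate 1 stood apart in both groups, and many members differed between it and the other replicates. In an edgeR test of replicate 1 against replicates 2 and 3, with the group as a term, 17 of 39 members were called (43.6%), beside 23.6% of all tested genes. Of these members 14 were higher in replicate 1 and 3 were lower, where all tested genes were called higher at 11.6% and lower at 12%. Without empty-vector replicate 1 the members called higher were 5, and without TIM-1 replicate 1 the members called lower were 0. Each of these left-out fits holds a single library of replicate 1, and its calls over all tested genes are not given here. The changes therefore cannot be read as particular to the members. With no library left out, the median log2 difference was 0.16 over the members and -0.01 over all tested genes. Of the further ligands, receptors and regulators described below, 38.7% were called in this comparison, 10 higher and 2 lower. Of the further target genes 46.4% were called, 6 higher and 7 lower.

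ID2 was higher in replicate 1 by 1.08 on the log2 scale (adjusted p = 2.51e-08) and NOG by 1.02 (adjusted p = 9.63e-09). SMAD6, ID1 and SMAD7 were higher by 0.54, 0.49 and 0.46. All 4 LTBP genes were higher too, LTBP1 by 0.79 (adjusted p = 0.00432) and LTBP4 by 0.42 (adjusted p = 4.33e-05). The other genes called higher were TGFB3, SMAD3, TGFBI, BMPR2 and SMAD5, and BMP6, SMURF2 and TGIF1 were lower, by 0.32, 0.31 and 0.25. ID3, the other abundant ID gene, was not called (-0.16, adjusted p = 0.0745).

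Of all 725 genes called with TIM-1 in the paired test, 376 were also called in replicate 1, 336 in the same direction. All 3 members called with TIM-1 in the paired test were also called higher in replicate 1, TGFBI by 0.24 (adjusted p = 0.00781) and LTBP2 by 0.35 (adjusted p = 0.038). These 3 calls in replicate 1 ended without empty-vector replicate 1, with log2 differences of 0.12 for TGFBI (adjusted p = 0.41), 0.11 for LTBP2 (adjusted p = 0.712) and 0.74 for LTBP1 (adjusted p = 0.0841). DESeq2 also did not call LTBP2 in this comparison (adjusted p = 0.11). The part of this difference in the TIM-1 results was not tested. Without replicate 1 of both groups, the paired log2 fold changes were 0.40 for TGFBI, 0.54 for LTBP2 and 0.71 for LTBP1. That paired fit called 6 members, 5 of them higher, beside 5.76% of all tested genes. The 1 lower was TGFB1 (-0.28, adjusted p = 0.0364).

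**Figure D4:**
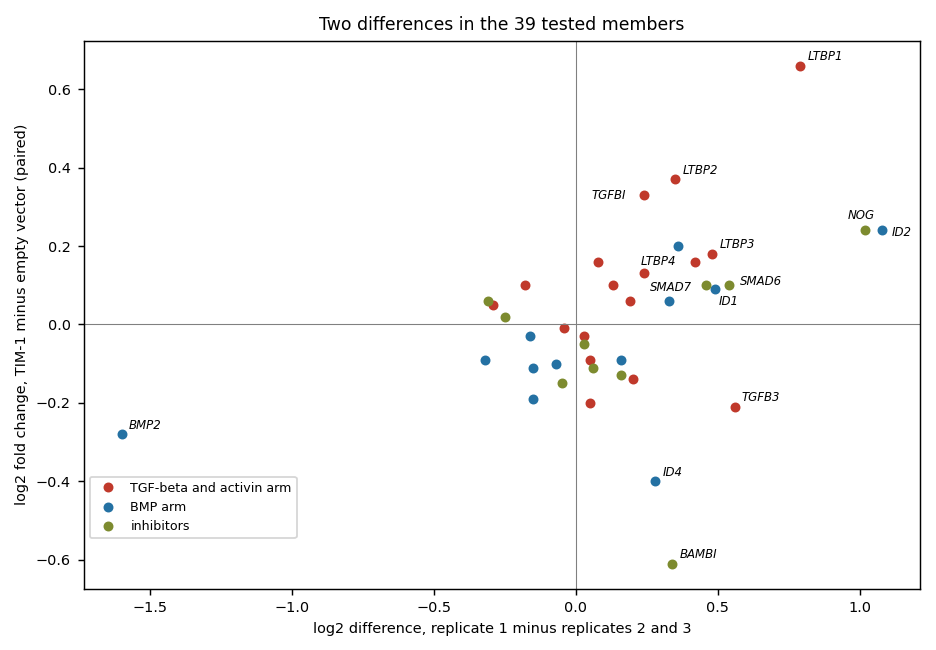
Log2 difference between replicate 1 and replicates 2 and 3 (horizontal axis) and paired log2 fold change with TIM-1 (vertical axis) of the 39 tested members, coloured by arm. NOG and ID2 lie near 1 on the horizontal axis, while LTBP1 has the highest value on the vertical axis, 0.66.

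Other pathway genes were taken from written lists. Of 64 further ligands, receptors and regulators 31 were tested, and 2 rose in the paired test with 0 lower (6.45%), beside 5.01% of all tested genes. At an unadjusted p under 0.05, 5 were higher and 1 was lower in that test, beside 1426 and 1230 of 14479 tested genes. FSTL1, a secreted follistatin-like protein, had 151, 105 and 111 CPM with TIM-1 and 122, 77.5 and 78.1 CPM with the empty vector, higher in every pair (paired log2 fold change 0.42 ± 0.07 SE, adjusted p = 3.08e-05). NEDD4L, a ubiquitin ligase that acts on activated SMAD2 and SMAD3, had 87.6, 169 and 166 CPM against 69.0, 111 and 111 CPM. Its paired log2 fold change was 0.52 ± 0.07 (SE, adjusted p = 3.31e-07), and here replicate 1 was the lowest library of each group. The unpaired adjusted p was 0.893 for both genes, and they differed between replicate 1 and the others by 0.57 and -0.81 on the log2 scale.

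Of 35 further target genes 28 were tested, and 3 rose and 2 fell in the paired test (17.9%), with a median log2 fold change of 0.05. IGFBP3, which binds insulin-like growth factors, had 312, 233 and 229 CPM against 197, 118 and 109 CPM without overlap (paired log2 fold change 0.90 ± 0.07 SE, adjusted p = 5.3e-13). COL1A1, a collagen I chain, rose by 0.90 and BHLHE40, a transcriptional repressor, by 0.36. MYC, which TGF-beta represses in epithelial cells, had 140, 253 and 272 CPM against 174, 317 and 358 CPM. It was lower in every pair and fell by 0.35 (adjusted p = 0.000105), and replicate 1 was the lowest library of each group.

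CCN1, CCN2 and PMEPA1, named after their values were seen, each stood at 0.05 and JUNB at -0.10 (paired log2 fold change), with adjusted p from 0.485 to 0.835. Of the 28 tested targets, 17 had a positive and 11 a negative paired log2 fold change, beside 7241 and 7238 of all tested genes. Whether the targets respond together was not tested. In replicate 1 against the others, CCN1, CCN2 and JUNB differed by -0.90, -1.09 and -1.17 on the log2 scale, and PMEPA1 by 0.14. In the unpaired test 0 genes of either list passed in edgeR, and IGFBP3 had an adjusted p of 0.675.

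Extracellular matrix genes were compared because earlier results of these data showed such genes rising, so their share of calls is a description and not independent evidence. Of 59 genes 37 were tested, and 15 rose and 1 fell in the paired test (43.2%), beside 7.69% of the members and 5.01% of all tested genes. Their median paired log2 fold change was 0.16. COL5A1, a fibril-forming collagen chain, had 65.5, 39.7 and 35.2 CPM against 36.8, 22.9 and 23.4 CPM and rose by 0.74 ± 0.09 (SE, adjusted p = 4.32e-08). The collagen-modifying enzymes PLOD2 and LOXL2 rose by 0.43 and 0.31. MMP2, a gelatinase, rose by 0.83 and SPARC, a collagen-binding glycoprotein, by 0.34, and in both the groups did not overlap.

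TGFBI, LTBP1 and LTBP2 encode matrix or matrix-associated proteins as well, but are not on the matrix list. COL1A1 is on both the matrix and the target list, which share 7 genes. In replicate 1 against the others 15 of the 37 matrix genes were higher and 3 lower (48.6%), with a median of 0.24. Of the 16 matrix genes called with TIM-1, 10 were also called in replicate 1, each in the same direction. MMP2 and SPARC were not (log2 differences 0.15 and 0.10). Over all tested genes, 376 of the 725 paired calls were also called in replicate 1, 336 of them in the same direction. In the unpaired test 0 matrix genes passed in edgeR and 1 in DESeq2. DESeq2 with the pairing kept 7 of the 16 calls, and 11, 5 and 13 were kept without pairs 1, 2 and 3.

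**Figure D5:**
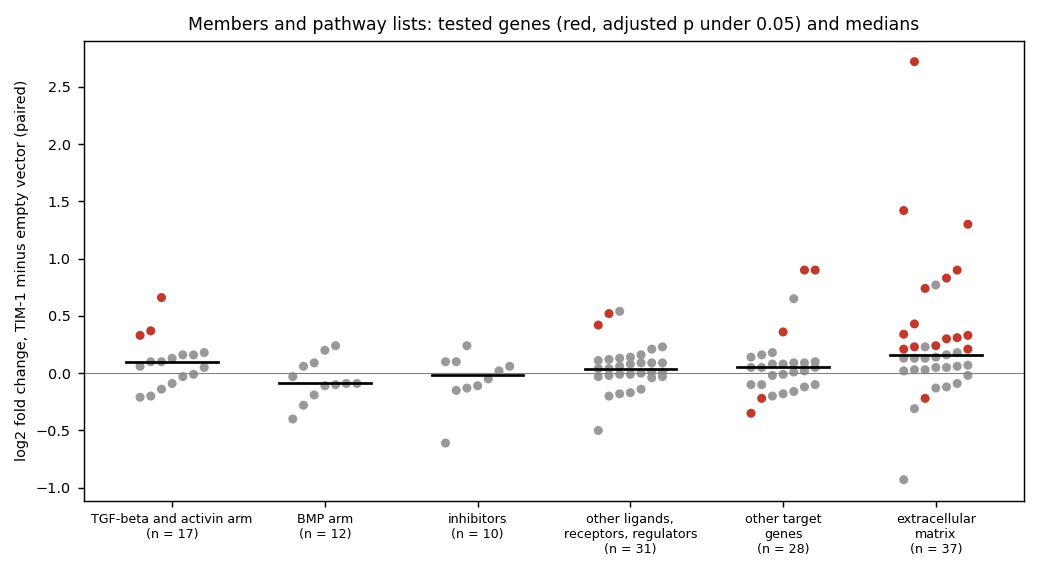
Paired log2 fold change (vertical axis, TIM-1 minus empty vector) of every tested gene in the 3 arms and in the lists of other ligands, receptors and regulators, other targets and extracellular matrix genes. Points are genes, red for an adjusted p under 0.05, and black bars are medians, highest for the matrix genes at 0.16.

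Total counts ran from 14312387 to 18605914 per library. HAVCR1 had 7069, 9824 and 11479 counts in the TIM-1 libraries and 4, 0 and 0 with the empty vector. Of 15 urothelial markers 6 were tested, and 7 of the 15 had at most 10 counts in any library. UPK3A and EPCAM had 0 counts in all libraries and KRT5, TP63 and CDH1 at most 2, while KRT8 and KRT18 were present. In the paired test KRT18 and GATA3 fell by 0.24 and 1.25, PPARG rose by 0.62 and the other 3 tested urothelial markers were not called. The 4 mesenchymal-type tumour cell markers, VIM and ZEB1 among them, were all tested, with 0 called. The part of these markers in the member results was not tested. The 4 leukocyte markers had at most 1 count and the 4 endothelial markers at most 3. Of the 7 fibroblast markers, COL1A1 and PDGFRB were tested and the other 5 had at most 2 counts, with DCN at 0. The summed fibroblast list stood at 9.34 to 15.9 CPM with TIM-1 and 5.67 to 9.52 CPM with the empty vector, and most of it was COL1A1.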

How the data were processed

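The authors deposited a table of raw gene counts (whole reads per Ensembl gene, 1 column per library). The submitters' processing notes name HISAT2 2.0.5, featureCounts 1.5.0-p3, DESeq2 1.16.1 and the build hg38. Not given in the sources used here are the annotation release, the strand setting and what was done with multi-mapping reads, so overlapping genes may share reads.

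Groups came from the labelled treatment and replicate numbers from the titles. Genes passing filterByExpr (minimum count 10) were tested with edgeR 4.0.16 (TMM, robust quasi-likelihood F test, 2-sided, R 4.3.3), with Benjamini-Hochberg adjustment over all 14479 genes and a threshold of 0.05. The main design has no pairing. The paired test adds the replicate number as a block. Deviations from group means correlated at 0.53, 0.23 and 0.26 for replicates 1, 2 and 3, all above the limit of 0.1 used for taking numbers as pairs. The pairing comes from the data alone. TIM-1 replicate 3 with empty-vector replicate 2 also reached 0.26, so replicates 2 and 3 are told apart weakly. Residual degrees of freedom are 4 unpaired and 2 paired. Within groups, libraries differed by more than sampling noise (chi-square per degree of freedom 4.18 to 27.3), so none was counted as a copy.

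Levels per length use GENCODE 29 union exons. Symbols matched for all 236 list entries. The members and lists were chosen with earlier results of these data known. Members named in full were those called in either test, those whose groups did not overlap, and the 2 highest per exon length in each role. In other lists, called genes with the smallest paired p were named. 1 list gene is included in the counts but not reported here by name. Alternatives were DESeq2 1.42.0, its size factors, no filter, single replicates left out, the block and a GC correction.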

Additional observations from a re-analysis of the deposited data

How the results depend on the processing

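Values below are given as higher and lower calls, TIM-1 against empty vector. Over all genes the unpaired edgeR test called 2 and 0, DESeq2 24 and 1, no filter 60 and 12, leaving out 1 library 1 to 8 and 0 to 1, and leaving out replicate 1 of both groups (chosen after seeing the data) 175 and 82. The replicate block called 466 and 259, with DESeq2 131 and 78, with DESeq2 size factors 469 and 279, with no filter 436 and 290, with replicate 1 against the others as the block 348 and 162, and with a GC correction 673 and 614. Without pairs 1, 2 and 3 the block gave 440, 152 and 339 higher and 398, 57 and 134 lower.

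Members called went from 0 higher and 0 lower unpaired to 3 and 0 with the replicate block. The paired alternatives gave 1 higher (DESeq2), 3 (size factors), 3 (no filter, with ID2 in place of LTBP1), 1 (replicate 1 as the block) and 5 (GC correction). Leaving out a pair gave 0 to 5 higher and 0 to 1 lower, and leaving out replicate 1 of both groups unpaired gave 3 higher. Unpaired DESeq2, its size factors, no filter and each left-out library called 0. In the comparison of replicate 1, calls over all tested genes are not given for the alternatives, so the member counts have no background there. For replicate 1 against the others the 14 higher and 3 lower members became 5 to 16 and 0 to 4 when 1 library was left out, with 5 higher without empty-vector replicate 1 and 0 lower without TIM-1 replicate 1.

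Matrix genes called higher were 0 unpaired, 5 with no filter, 1 in DESeq2 and 7 without replicate 1 of both groups. They were 15 with the replicate block, 6 in paired DESeq2, 14 with size factors, 12 with no filter, 10 with replicate 1 as the block, 15 with GC correction, and 11, 5 and 13 without pairs 1, 2 and 3. The paired fits called 1 lower, and 0 without pair 2. Other targets were 0 unpaired, 1 higher in DESeq2, with no filter and without empty-vector replicate 1, 3 higher and 1 lower without replicate 1 of both groups, and 3 higher and 2 lower in every paired setting except without pair 2 (2 and 1). Other regulators were 0 unpaired and 2 higher without replicate 1 of both groups and in every paired setting, with 1 lower under the GC correction.

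Of 323 alternative values for the 17 named members 284 kept direction and side of the threshold of the unpaired test, which called none of them, 22 newly passed it and 17 changed sign. The 3 paired calls were lost in part: LTBP1 and LTBP2 in paired DESeq2 and with replicate 1 as the block, LTBP1 with no filter and without any 1 pair, LTBP2 without pair 2 or pair 3, and TGFBI without pair 2. Without TIM-1 replicate 1 the log2 values were 0.06 for BMP6, -0.09 for ID1, 0.04 for ID3, 0.00 for LTBP4, -0.15 for NOG and -0.05 for SMAD5. Without empty-vector replicate 2 they were -0.01 for ID1 and -0.03 for NOG, without empty-vector replicate 3 -0.04 for SMAD5, and for SMURF2 -0.04 without TIM-1 replicate 2 and -0.03 without empty-vector replicate 1. With replicate 1 of both groups left out, BMP6 was 0.00 and ID3 0.01, paired or not. The block without replicate 3 gave 0.00 for SMAD5 and 0.04 for TGFB1. Over single left-out libraries the values reached -0.20 for BMP6, 0.27 for ID1, -0.10 for ID3, 0.30 for LTBP4, 0.71 for NOG, 0.19 for SMAD5 and 0.17 for SMURF2. The cause was not tested. Genes with few counts, such as LTBP1, BAMBI and ID4, are limited by depth.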
